A study of Mus musculus with 18 samples.

Results

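The comparison set 5 mice that had received donor T cells and indole-3-carboxaldehyde (ICA) against 4 mice that had received neither, and so describes what still differed from the transplant controls in the ileum of T cell recipients under ICA. These 9 mice were chosen by their titles from the 18 of the series, and the comparison covered 22180 genes, each on a probe set annotated with a single gene. All recipients were B10.BR mice of 8 to 12 weeks, given 11 Gy of total body irradiation and then marrow of C57Bl/6 donors from which T cells had been removed. The 5 T cell mice given ICA, called the treated mice here, also received purified C57Bl/6 T cells, the graft that per the labels leads to graft-versus-host disease, and 150 mg/kg of ICA by gavage each day. The 4 control mice received the marrow alone and the vehicle of DMSO, PEG400 and citric acid. Ileum was taken on day 21 after transplantation, 1 array per mouse, and the titles call the mice of a group biological replicates. Graft and gavage both differ between the groups, so that this comparison alone cannot tell apart what belongs to the T cells and what to ICA. For that reason the values of the 4 T cell mice given vehicle are set beside it. For some genes and lists, those of the 5 mice given marrow alone and ICA are added. The differences of both groups from the controls use the same 4 control mice and are not independent of the first comparison.

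In graft-versus-host disease, mature T cells of the donor recognise the tissue antigens of the recipient, and the gut is a main target, where crypts, Paneth cells and the epithelial barrier are damaged. ICA, which gut bacteria make from tryptophan, binds the aryl hydrocarbon receptor, a transcription factor that in the gut takes part in innate lymphoid cell function, IL-22 production and xenobiotic metabolism. CD8 T cells kill through granzymes, perforin and Fas ligand and release chemokines that draw in further leukocytes.

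Levels are given in log2 units as deposited, in which a step of 1 is a 2-fold change. They do not allow levels of different genes to be ranked. Array medians lay between 6.47 and 6.51, and any 2 of the 18 arrays correlated across genes with r between 0.978 and 0.993. The 10 measured markers of ileal enterocytes included Fabp6, the ileal bile acid binding protein, at 11.81 to 12.60 in the controls and 12.26 to 12.71 in the treated mice. None of the 10 passed the test in limma (1 had an unadjusted p under 0.05). With no other tissue on the arrays, these values do not test the tissue label. The SD over genes of a mouse's deviation from its group mean was largest in treated mouse 1 among the treated mice, at 0.245, followed by treated mouse 2 at 0.195, and in control mouse 3 among the controls, at 0.184, followed by control mouse 2 at 0.153. Leaving out treated mouse 1 raised the number of genes that passed from 392 to 828, and leaving out 1 of the other 8 mice gave between 136 (control mouse 4) and 358 (control mouse 3). Where a gene given with its values lost its call between treated and control mice on leaving out 1 mouse, those mice are named in the same paragraph. Calls of single genes in the other comparisons were not followed in this way.

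Of 22180 genes, 392 passed an adjusted p under 0.05 in limma, which is 1.77% of those tested. An unadjusted p under 0.05 in limma was reached by 2908 of the 22180, the background for such counts in the lists below. Of these, 193 rose (0.87%) and 199 fell (0.897%). The difference reached 2-fold for 52 of them (0.234%), of which 27 were higher and 25 lower in the treated mice. Differences of called genes started at 0.22 in log2, with a median size of 0.52, against a median SE of 0.11 over all genes. The values of the treated mice lay wholly above or wholly below those of the controls for 341 of the called genes and overlapped for the other 51, while over all genes the groups did not overlap for 511 genes that were higher (2.3%) and 690 that were lower (3.11%). In the T cell mice given vehicle, 327 genes differed from the same controls (1.47%), of which 176 were higher (0.794%) and 151 lower (0.681%). Between the treated mice and the T cell mice given vehicle, 3 genes passed (0.0135%), and ICA against vehicle without T cells gave 1 (0.00451%), the clock repressor Nr1d1, which fell by 1.16. The interaction of graft and gavage gave 0 called genes in limma, with 1482 at an unadjusted p under 0.05.

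**Figure D1:**
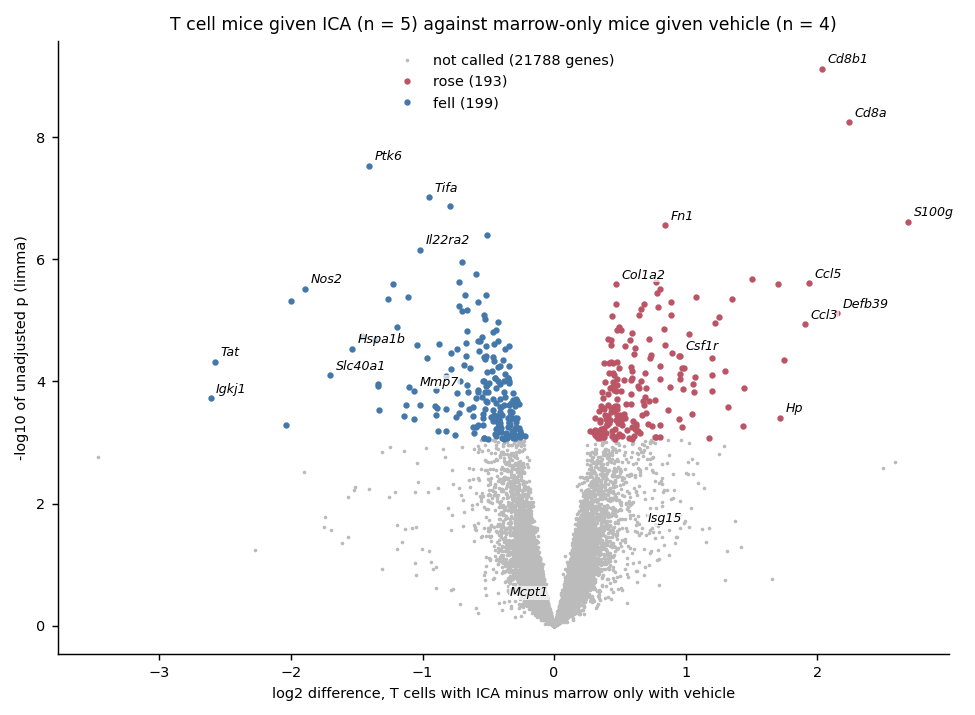
Each point is 1 of 22180 genes, with its log2 difference between the 5 treated mice and the 4 control mice on the horizontal axis and -log10 of the unadjusted p from limma on the vertical axis. Coloured points passed an adjusted p under 0.05 (193 higher, 199 lower), and labelled genes include S100g and Cd8a on the right and Tat and Igkj1 on the left.

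Genes of CD8 T cells made up several of the largest rises. Cd8a and Cd8b1 encode the chains of the co-receptor of killer T cells. Cd8a read 6.81, 6.78, 6.33 and 6.85 in control mice 1 to 4, and 8.37, 9.14, 9.26, 9.03 and 8.89 in treated mice 1 to 5. The groups did not overlap, and the lowest treated mouse was mouse 1. The rise was 2.24 ± 0.23 (SE), or 4.73-fold (adjusted p = 6.32e-05), beside 2.02 in the T cell mice given vehicle, and the difference between the T cell groups was 0.22 with a 95% interval of -0.26 to 0.71. Cd8b1 rose from 7.21, 7.29, 6.83 and 6.69 to 8.69, 9.05, 9.49, 9.14 and 8.83, by 2.04 ± 0.19 or 4.1-fold (adjusted p = 1.67e-05), the smallest p of all genes. Cd3g, a chain of the T cell receptor complex, rose by 1.75 ± 0.34 (adjusted p = 0.01), again with no overlap. In marrow-only mice given ICA, Cd3g differed from the controls by 0.86 (adjusted p = 0.618), Cd8a by 0.26 and Cd8b1 by -0.03. Against those mice Cd3g did not pass in the treated mice (0.88, adjusted p = 0.147). Cd4, the co-receptor of helper T cells, differed by -0.41 ± 0.20 (adjusted p = 0.4).

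In all, 4 of 12 measured T cell markers rose and none fell, the fourth being Cd3e (chosen after its values were seen), at 1.18 ± 0.30 (adjusted p = 0.0487). Their median difference was 0.73, against -0.00 over all genes, and 4 of the 12 also passed in the T cell mice given vehicle, with a median of 0.65. The mean of the 12 markers was 6.74 to 7.26 in the controls and 7.54 to 8.23 in the treated mice, lowest in treated mouse 1. The count was 8 with array weights or with only the 2 groups compared, 7 without treated mouse 1 and 3 without any other single mouse, since Cd3e passed only in the full set and without treated mouse 1 (adjusted p up to 0.143 elsewhere). Trav9d-3, a variable segment of the T cell receptor alpha chain, rose by 1.44 ± 0.35 (adjusted p = 0.0383), but missed the threshold without any 1 of control mice 1, 3 and 4 and treated mice 2 to 5 (up to 0.118). In marrow-only mice given ICA, Trav9d-3 differed from the controls by 0.92 (adjusted p = 0.618). The 12 markers had a median of 0.43 there, and none passed. In bulk RNA of this kind, more cells of a type and more RNA per cell cannot be told apart, which holds for every cell type marker in this account.

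Among 11 measured cytotoxic effector genes, 4 rose and none fell, with a median difference of 0.64 (0.91 in the T cell mice given vehicle, where 4 also passed). Ccl5, a chemokine stored and released by killer lymphocytes, read 9.49, 10.17, 8.97 and 9.61 in the controls and 10.95, 11.90, 11.78, 11.67 and 11.20 in the treated mice. All 5 treated mice lay above all controls, and the rise was 1.94 ± 0.30 or 3.83-fold (adjusted p = 0.00315). Gzmk, granzyme K, rose from 6.66, 7.36, 6.63 and 6.85 to 8.01, 8.81, 9.01, 8.58 and 8.49, by 1.70 ± 0.26 (adjusted p = 0.00315). Fasl, the ligand of the death receptor Fas, rose by 1.08 ± 0.17 (adjusted p = 0.00365). Nkg7, a granule protein, rose by 1.20 ± 0.26 (adjusted p = 0.0183, chosen after its values were seen), and missed the threshold without control mouse 3 or 4 or treated mouse 2 or 3 (up to 0.0694). Gzmb, granzyme B, did not pass, at 0.92 ± 0.43 (adjusted p = 0.358), with values of 7.56 to 9.65 in the treated mice that overlapped those of the controls at 7.01 to 8.36.

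The inhibitory receptors of activated T cells gave 3 rises among 10 measured checkpoint and regulatory genes, and no fall, with a median of 0.34 (0.36 under vehicle, with 3 rises). Pdcd1, encoding PD-1, read 6.15, 6.35, 5.61 and 6.08 in the controls and 6.54, 7.18, 7.23, 6.78 and 7.28 in the treated mice, a rise of 0.95 ± 0.18 (adjusted p = 0.0096) with no overlap. Tigit rose by 0.98 ± 0.21 (adjusted p = 0.0174) and Lag3 by 0.62 ± 0.15 (adjusted p = 0.0381). Foxp3, the defining factor of regulatory T cells, differed by -0.29 ± 0.14 (adjusted p = 0.406), and Ctla4 by 0.17 ± 0.13 (adjusted p = 0.668). Tigit missed the threshold without control mouse 2 or 4 or treated mouse 2 or 3 (up to 0.0799), and Lag3 without any 1 mouse other than treated mouse 1 or 4 (up to 0.128), so that the count fell to 1 without control mouse 2 or 4 or treated mouse 2 or 3. Receptors of natural killer and CD8 cells outside these lists, chosen after their values were seen, rose as well: Klrc1 by 1.20 ± 0.24 (adjusted p = 0.0138) and Cd226 2.46-fold (adjusted p = 0.0129), both of which missed it without control mouse 1 (0.0549 and 0.0564).

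**Figure D2:**
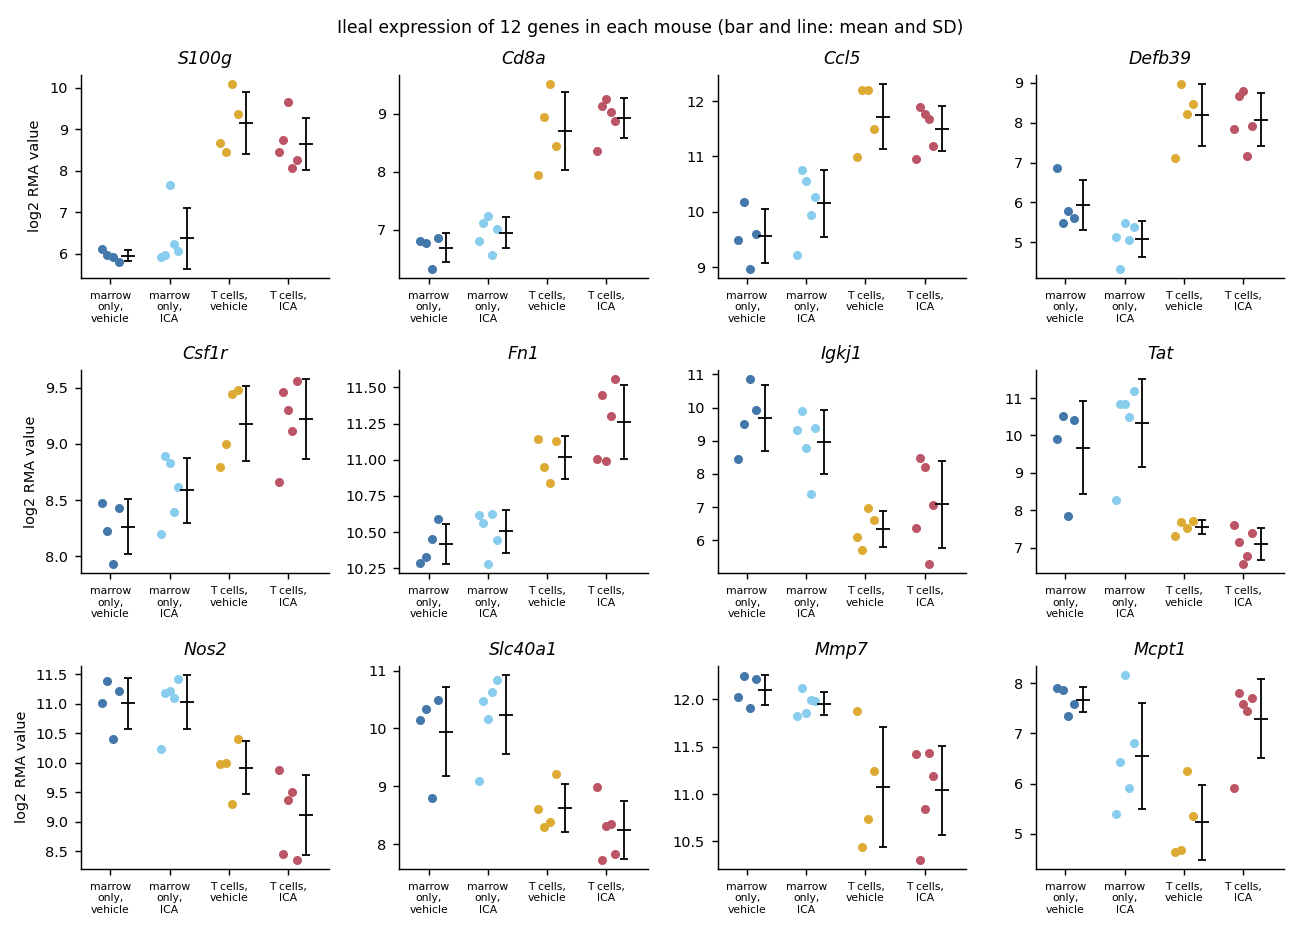
Each of 12 panels shows the deposited log2 level of 1 gene on the vertical axis, with 1 point per mouse for all 4 groups of the series (marrow only or T cells, each with vehicle or ICA) and a bar and line for the group mean and SD. For Cd8a the treated mice (T cells, ICA) lie between 8.37 and 9.26, all above the controls (marrow only, vehicle), while for Mcpt1 4 of the 5 treated mice lie within the control range and the T cell mice given vehicle lie below it, at 4.65 to 6.24.

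Chemokines that draw in monocytes and T cells rose in part. Of 18 measured chemokines 3 rose and 1 fell, with a median of 0.08 (0.34 under vehicle, with 4 rises). Beside Ccl5, Ccl3, a chemokine made by activated macrophages and T cells, rose from 7.26, 6.91, 7.04 and 7.15 to 7.80, 9.86, 9.38, 8.60 and 9.35. The lowest treated value, again in mouse 1, stood above every control, and the rise was 1.91 ± 0.33 or 3.75-fold (adjusted p = 0.00551), beside 2.41 under vehicle. Ccl8, a monocyte chemoattractant, rose by 1.44 ± 0.31 (adjusted p = 0.0173), and missed the threshold without control mouse 1, 2 or 4 or treated mouse 2 or 5 (up to 0.0603). Ccl28, made by mucosal epithelium and a signal for IgA-producing cells, fell by 0.62 ± 0.15 (adjusted p = 0.0392, chosen after its values were seen), and missed it without control mouse 1, 2 or 4 or treated mouse 2, 3 or 5 (up to 0.135). The count of 4 chemokines was thus 2 without control mouse 1, 2 or 4 or treated mouse 2 or 5. Cxcl9 and Cxcl10, the interferon gamma-induced ligands of CXCR3, differed by 0.45 ± 0.33 and 0.05 ± 0.33 (adjusted p = 0.638 and 0.981). Among 10 measured homing receptors 0 passed in limma, with 4 at an unadjusted p under 0.05, and the closest was Cxcr6 at 0.86 ± 0.22 (adjusted p = 0.0506), whose groups did not overlap and which passed without treated mouse 1 (0.037), where 3 of the 10 passed.

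Of 11 measured macrophage markers 6 rose and none fell, and their median difference was 0.62 (0.61 under vehicle, with 4 rises). In marrow-only mice given ICA their median was 0.28, with 10 of 11 above 0 and no call. Against those mice, 2 of the 11 rose in the treated mice, with a median of 0.37. Csf1r, the receptor through which macrophages are maintained, read 8.47, 8.23, 7.93 and 8.43 in the controls and 8.66, 9.46, 9.30, 9.11 and 9.56 in the treated mice. The groups did not overlap, and the rise was 0.96 ± 0.18 or 1.94-fold (adjusted p = 0.0096). Mrc1, the mannose receptor, rose by 0.89 ± 0.15 (adjusted p = 0.00444), and Adgre1, a surface receptor of tissue macrophages, by 0.73 ± 0.14 (adjusted p = 0.00966). The complement genes C1qa, C1qb and C1qc rose by 0.70 ± 0.16, 0.68 ± 0.15 and 0.59 ± 0.15 (adjusted p = 0.0292, 0.0232 and 0.0491, chosen after their values were seen). Cd163 and Lyz2 differed by -0.00 ± 0.12 and 0.04 ± 0.12 and did not pass. The count of 6 became 9 without treated mouse 1, 4 without control mouse 2 and 3 without control mouse 1, 3 or 4 or treated mouse 2, 3 or 5, where C1qa, C1qb and C1qc reached an adjusted p of up to 0.0862, 0.0694 and 0.129. Single omissions cost C1qa its call without control mouse 1, 3 or 4 or treated mouse 2, 3 or 5, C1qb without these or control mouse 2, and C1qc without any 1 mouse other than treated mouse 1. Csf1r, Mrc1 and Adgre1 passed without any 1 mouse.

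Gpnmb, Folr2, Trem2 and Apoe, which tissue macrophages express, were chosen after their values were seen. Gpnmb, a glycoprotein of lipid-laden macrophages, averaged 6.86 in the controls and read 7.59, 8.96, 8.17, 7.90 and 8.46 in the treated mice, and rose by 1.35 ± 0.22 (adjusted p = 0.00365), beside 1.39 under vehicle. Folr2, folate receptor beta, rose by 1.25 ± 0.21 (adjusted p = 0.00454), with 0.70 under vehicle (adjusted p = 0.131) and a difference between the T cell groups of 0.55 (95% interval 0.11 to 0.99, adjusted p = 0.592). Trem2, a lipid-sensing receptor, rose by 0.72 ± 0.13 (adjusted p = 0.00731) and the lipid carrier Apoe by 0.46 ± 0.09 (adjusted p = 0.0139, 0.0512 without control mouse 2). All 4, chosen on their values, had treated mice wholly above the controls, against 2.3% of all genes. Among 6 eosinophil markers the chemokine receptor Ccr3 rose, by 0.69 ± 0.15 (adjusted p = 0.0213), and missed the threshold without control mouse 1, 2 or 4 or treated mouse 2 or 4 (up to 0.0702). Among 9 markers of natural killer and innate lymphoid cells, the transcription factor Eomes rose by 0.85 ± 0.16 (adjusted p = 0.00767) and the IL-23 receptor gene Il23r fell by 0.78 ± 0.16 (adjusted p = 0.012, up to 0.0633 without control mouse 1 or 4). Ccr3 and Il23r averaged 4.73 and 4.80 over all 18 mice, at the low end of the array, and no detection call was used to judge whether such levels are above background.

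Of 8 measured genes of MHC class II presentation only H2-Aa rose, by 0.59 ± 0.12 (adjusted p = 0.0119, 0.0524 without control mouse 1), beside 0.70 under vehicle. The list median was 0.35, and 2 of the 8 passed without treated mouse 1. Donors and recipients differ in H2 haplotype, and how far the array reads the H2 alleles of B10.BR and C57Bl/6 alike was not tested. None of 9 genes of class I loading passed (4 at an unadjusted p under 0.05), and Tap2, a subunit of the peptide transporter, came closest at 0.44 ± 0.12 (adjusted p = 0.0576, 0.00698 without treated mouse 1). Of 16 genes of the interferon gamma response, the guanylate-binding proteins among them, none rose, and the only one that passed was Nos2, inducible nitric oxide synthase, which fell. The list median was 0.19 (0.29 under vehicle).

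Nos2 read 11.02, 11.39, 10.40 and 11.22 in the controls, 9.97, 9.99, 9.31 and 10.40 in the T cell mice given vehicle, and 9.87, 8.46, 9.37, 9.51 and 8.36 in the treated mice. Every treated mouse lay below every control. The difference of -1.89 ± 0.30, or 3.71-fold (adjusted p = 0.00344), held without any 1 mouse. Under vehicle the difference was -1.09 and did not pass (adjusted p = 0.087). The difference between the T cell groups, -0.80 (95% interval -1.42 to -0.19), did not pass either (adjusted p = 0.57), so that the larger size under ICA is not shown by the test across genes.

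Several segments of the kappa light chain were among the 12 largest called falls. Igkj1, a joining segment of the kappa light chain, gave the largest called fall: it read 8.46, 9.51, 10.85 and 9.94 in the controls and 6.38, 8.48, 8.22, 5.28 and 7.05 in the treated mice. Treated mouse 2 lay just above control mouse 1, and the other treated mice lay below all controls. The difference was -2.61 ± 0.57 or 6.1-fold (adjusted p = 0.0219), with -3.34 under vehicle. A variable segment of the same chain (Entrez gene 628027) fell with no overlap from 7.70, 7.70, 7.94 and 7.41 to 6.49, 5.15, 6.79, 4.91 and 5.08, a 4.01-fold difference (SE 0.32 in log2, adjusted p = 0.00366) that held without any 1 mouse. Another (Entrez gene 384419) differed by -2.04 ± 0.49 (adjusted p = 0.0375), with groups that overlapped at control mouse 3. The segments of this family resemble each other in sequence, so that the value of a single one is uncertain. Igkj1 missed the threshold without control mouse 2, 3 or 4 or treated mouse 4 or 5 (up to 0.0765), and the segment of Entrez gene 384419 without control mouse 1, 2 or 4 or any of treated mice 2 to 5 (up to 0.154).

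Of 11 measured B cell markers, 1 fell and none rose, with a median of -0.49 (-0.58 under vehicle, with 3 falls). For 6 of the 11 the treated mice lay wholly below the controls, against 3.11% of all genes. Cd79b, a signalling chain of the B cell receptor, fell from 7.33, 7.31, 7.02 and 7.07 to 6.91, 6.21, 6.36, 6.61 and 6.20, by 0.72 ± 0.17 (adjusted p = 0.0295). Its partner Cd79a differed by -0.97 ± 0.26 with no overlap but did not pass (adjusted p = 0.0596, 0.0172 without treated mouse 1), whereas it passed under vehicle at -1.23 (adjusted p = 0.0258). Among 9 plasma cell markers Xbp1, the secretory transcription factor that Paneth and goblet cells also use, fell by 0.31 ± 0.07 (adjusted p = 0.0184). Jchain, which joins IgA units, missed the threshold at -1.19 ± 0.59 (adjusted p = 0.396). Among 7 markers of Peyer's patch follicles the B cell chemoattractant Cxcl13 fell from 9.99, 10.10, 9.65 and 10.10 to 8.91, 9.24, 9.26, 9.16 and 9.53, by 0.74 ± 0.16 (adjusted p = 0.0186). Under vehicle Cxcl13 differed by -0.28 (adjusted p = 0.538). Each of Cd79b, Xbp1 and Cxcl13 missed the threshold without control mouse 1, 2 or 4, Cd79b also without treated mouse 2, 3 or 5 and Xbp1 without treated mouse 2 or 3 (up to 0.11, 0.0829 and 0.0783). Without treated mouse 1, 2 B cell and 5 plasma cell markers passed.

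The largest rise of all genes was that of S100g, calbindin-D9k, the protein that carries calcium through the enterocyte. It read 6.11, 5.97, 5.92 and 5.79 in the controls, 8.66, 8.47, 10.10 and 9.38 in the T cell mice given vehicle, and 8.45, 8.75, 9.67, 8.07 and 8.26 in the treated mice. Every mouse of both T cell groups lay far above every control. The rise was 2.69 ± 0.35 or 6.45-fold (adjusted p = 0.000881), beside 3.20 under vehicle, and the T cell groups differed by -0.51 (95% interval -1.25 to 0.22, adjusted p = 0.823). None of the other 6 measured genes of vitamin D action and calcium uptake passed. Trpv6, the calcium channel of the brush border, differed by -0.06 ± 0.10, and Vdr, the vitamin D receptor, by 0.07 ± 0.08.

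Beta-defensins, small antimicrobial peptides, gave 1 rise among 6 measured list members. Defb39 read 6.86, 5.47, 5.78 and 5.60 in the controls and 7.83, 8.66, 8.81, 7.16 and 7.93 in the treated mice, with no overlap, and rose by 2.15 ± 0.36 or 4.44-fold (adjusted p = 0.00444), beside 2.27 under vehicle. Outside the list, Defb37 rose 2.83-fold (SE 0.23 in log2, adjusted p = 0.00315) and Defb40, chosen after its values were seen, by 0.97 ± 0.19 (adjusted p = 0.0119, 0.0591 without control mouse 1) from a control mean of 4.41, at the low end of the array. Defb3 and Defb4 differed by -0.03 ± 0.11 and -0.11 ± 0.16. These genes are close relatives, and how far their probe sets share signal was not tested. Hp, haptoglobin, which binds free haemoglobin, rose by 1.72 ± 0.40 (adjusted p = 0.0324) with no overlap, beside 1.18 under vehicle (adjusted p = 0.196), and missed the threshold without control mouse 1, 2 or 4 or any of treated mice 2 to 5 (up to 0.114).

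Paneth cells sit at the base of the crypts and secrete antimicrobial proteins, and 2 of 7 of their measured markers fell. Mmp7, the protease that activates alpha-defensins, read 12.03, 12.25, 11.91 and 12.22 in the controls, 11.88, 10.44, 10.74 and 11.24 in the T cell mice given vehicle, and 11.42, 10.31, 10.84, 11.43 and 11.19 in the treated mice. All treated mice lay below all controls, and Mmp7 fell by 1.06 ± 0.23 (2.09-fold, adjusted p = 0.0184). Pla2g2a, a secreted phospholipase that kills bacteria, fell by 1.12 ± 0.25 (adjusted p = 0.0254), also with no overlap. None of the 7 Paneth markers rose, all 7 differences lay below 0, and the median was -0.64 (-1.03 under vehicle, with 2 falls). For 6 of the 7 the treated mice lay wholly below the controls, against 3.11% of all genes. Lyz1, Paneth cell lysozyme, missed the threshold at -0.35 ± 0.17 (adjusted p = 0.384). The mean of the 7 markers was 11.71 to 11.94 in the controls and 10.58 to 11.46 in the treated mice, and ran from 9.91 to 11.96 in the T cell mice given vehicle, of which mouse 1 stood at the control level. Mmp7 missed the threshold without control mouse 1, 2 or 4 or treated mouse 3, and Pla2g2a without the same mice or treated mouse 2 (up to 0.0718 and 0.0819). With a robust prior variance both missed it and the count was 0.

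Inducible antimicrobial genes of the epithelium gave 3 falls among 13 measured members and no rise, with a median of -0.50 (-0.41 under vehicle, with 2 falls). Beside Nos2, Pigr, the receptor that carries IgA into the lumen, fell by 0.45 ± 0.09 (adjusted p = 0.0146), and Reg3b, a bactericidal lectin, by 0.91 ± 0.20 (adjusted p = 0.0254). Reg3b read 13.56, 13.64, 13.26 and 13.59 in the controls and 13.34, 11.95, 12.57, 13.00 and 12.18 in the treated mice, of which mouse 1 lay within the control range. Under vehicle Reg3b differed by -0.41 (adjusted p = 0.438). Its relatives Reg3g and Reg3a differed by -0.55 ± 0.14 and -0.55 ± 0.24 (adjusted p = 0.0506 and 0.318). Reg3a had passed under vehicle, at -1.18 (adjusted p = 0.0215). Pigr missed the threshold without control mouse 2 or 4 (up to 0.0581), and Reg3b without control mouse 1, 2 or 4 or treated mouse 2, 3 or 5 (up to 0.0858), so that the count ran from 1 (without control mouse 2 or 4) to 4 (without control mouse 3 or treated mouse 1). Il18, the only 1 of 12 inflammatory cytokines that passed, is made by the epithelium and fell by 1.10 ± 0.23 (adjusted p = 0.0171), with a control mouse 3 at 7.83 inside the treated range of 7.25 to 8.03. It missed the threshold without control mouse 1, 2 or 4 or treated mouse 2 (up to 0.0816). Tnf, Il1b and Il6 differed by -0.22 ± 0.29, -0.23 ± 0.43 and 0.26 ± 0.25.

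Tat, Rdh16, Ptk6 and Slc40a1 were among the 12 largest called falls. Tat, tyrosine aminotransferase, which starts the breakdown of tyrosine, read 9.91, 10.51, 7.84 and 10.41 in the controls and 7.60, 7.15, 6.55, 6.77 and 7.38 in the treated mice. Control mouse 3 lay far below the other controls but still above every treated mouse. Tat fell by 2.57 ± 0.50 or 5.96-fold (adjusted p = 0.0106), beside -2.11 under vehicle. It missed the threshold without control mouse 2 or 4 (up to 0.0541), and was -3.18 without control mouse 3. Rdh16, a retinol dehydrogenase, fell by 1.46 ± 0.26 (adjusted p = 0.00686), and Dio1, which activates thyroid hormone (chosen after its values were seen), by 1.11 ± 0.18 (adjusted p = 0.00365). Both passed without any 1 mouse.

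Ptk6, an intracellular tyrosine kinase of the differentiating gut epithelium, fell from 9.78, 9.94, 9.02 and 9.79 to 8.33, 8.36, 8.11, 8.40 and 7.94. The 4 T cell mice given vehicle, at 8.80, 8.69, 8.55 and 9.23, lay above every treated mouse and overlapped the controls at control mouse 3. Ptk6 fell by 1.41 ± 0.16 or 2.65-fold (adjusted p = 0.000219), beside -0.81 under vehicle (adjusted p = 0.0181). The T cell groups differed by -0.59 (95% interval -0.93 to -0.26), which did not pass over all genes (adjusted p = 0.356). Slc40a1, ferroportin, the exporter of iron into the blood, read 10.15, 10.34, 8.80 and 10.48 in the controls and 8.99, 7.73, 8.32, 8.34 and 7.84 in the treated mice, with an overlap at control mouse 3. It fell by 1.70 ± 0.34 (3.25-fold, adjusted p = 0.0139), the only 1 of 8 iron genes that passed, and missed the threshold without control mouse 1, 2 or 4 (up to 0.0689).

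The membrane serine protease gene Prss27 fell by 1.36 ± 0.25 (adjusted p = 0.00731), with treated mice at 7.31 to 7.64 and controls at 8.18 to 9.14. B3gnt7, a glycosyltransferase that extends lactosamine chains, fell by 1.34 ± 0.28 (adjusted p = 0.0158), and the adhesion molecule gene Ceacam10 by 1.34 ± 0.28 (adjusted p = 0.0168). Chst4, a sulfotransferase that acts on mucin-type sugars, and Stom, the membrane protein stomatin, both chosen after their values were seen, fell by 1.33 ± 0.30 (adjusted p = 0.0279) and 1.26 ± 0.20 (adjusted p = 0.00365). Control mouse 3 was the lowest control for all 5 of these genes. B3gnt7 missed the threshold without control mouse 1, 2 or 4, Ceacam10 also without treated mouse 2, 3 or 5, and Chst4 without control mouse 1, 2 or 4 or any of treated mice 2 to 5 (up to 0.0726, 0.0785 and 0.122).

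Absorptive functions gave few calls. Of 11 measured peptidases and amino acid transporters 1 fell: Slc7a9, a subunit of the cystine and basic amino acid carrier, read 11.17, 11.10, 11.15 and 11.07 in the controls and 10.68, 10.80, 10.64, 10.49 and 10.73 in the treated mice, and fell by 0.46 ± 0.09 (adjusted p = 0.0106). For 7 of these 11 genes the treated mice lay wholly below the controls, against 3.11% of all genes. The list median was -0.21, and under vehicle it was 0.03 with no call. In marrow-only mice given ICA the list median against the controls was -0.37, with 0 of 11 differences above 0 and no call. Between the treated mice and those mice it was 0.03, with 7 of 11 above 0. Slc6a18, another amino acid carrier (outside the list and chosen after its values were seen), fell by 0.90 ± 0.21 (adjusted p = 0.0312), beside -0.07 under vehicle. Nr1h4, the bile acid receptor FXR, fell by 0.50 ± 0.10 (adjusted p = 0.0158), beside -0.25 under vehicle (adjusted p = 0.335), and was the only 1 of 8 bile acid genes that passed. Abcg2, an efflux pump for xenobiotics, fell by 0.43 ± 0.10 (adjusted p = 0.0318), the only 1 of 12 xenobiotic genes. None of 9 sugar, 12 fat or 14 cholesterol genes passed (1, 1 and 0 at an unadjusted p under 0.05). Slc6a18 missed the threshold without control mouse 1, 2 or 4 or any of treated mice 3 to 5, Nr1h4 without control mouse 1, 2 or 4, and Abcg2 without those or any of treated mice 2 to 5 (up to 0.121, 0.07 and 0.114).

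Of 9 measured fibroblast and matrix genes 4 rose. Fn1, fibronectin, read 10.29, 10.33, 10.45 and 10.59 in the controls, 11.14, 10.95, 10.84 and 11.13 in the T cell mice given vehicle, and 11.01, 11.44, 10.99, 11.30 and 11.55 in the treated mice. The rise was 0.84 ± 0.11 or 1.8-fold (adjusted p = 0.000881), with no overlap, beside 0.60 under vehicle (adjusted p = 0.0129). Col1a2, a chain of collagen I, rose by 0.47 ± 0.07 (adjusted p = 0.00315), where under vehicle it differed by 0.20 (adjusted p = 0.247), and the T cell groups differed by 0.28 (95% interval 0.12 to 0.43, adjusted p = 0.339). Its partner chain Col1a1 rose by 0.45 ± 0.09 (adjusted p = 0.0134, 0.0534 without control mouse 2). The fourth was the matrix protease Mmp2, none fell, and the median was 0.38 (0.20 under vehicle, with 1 rise). The mean of the 9 genes was 9.38 to 9.64 in the controls and 9.76 to 10.01 in the treated mice. Without control mouse 2 the count was 2.

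Smooth muscle markers moved with the matrix genes, and the part that the share of muscle in a sample has in the result was not tested. Of 9 measured markers 4 rose and none fell, with a median of 0.43 (0.28 under vehicle, with no call), and their mean was 9.92 to 10.11 in the controls and 10.19 to 10.61 in the treated mice. Cnn1, calponin, rose from 10.94, 11.25, 11.18 and 11.30 to 11.54, 11.98, 11.48, 11.79 and 12.01, by 0.59 ± 0.12 (adjusted p = 0.0129, 0.0635 without control mouse 1). Actg2, smooth muscle gamma actin, and Myh11, smooth muscle myosin, rose by 0.54 ± 0.13 and 0.46 ± 0.11 (adjusted p = 0.0326 and 0.0404). The count was 6 without treated mouse 1 or 3 and 0 without control mouse 1, 2 without control mouse 2 or 3, and 1 without control mouse 4 or treated mouse 2, 4 or 5, where Actg2 and Myh11 reached up to 0.143 and 0.149. Actg2 missed the threshold without control mouse 1, 3 or 4 or treated mouse 2, 4 or 5, and Myh11 without any 1 mouse other than treated mouse 1. With no trend in the prior variance, 1 marker passed. Endothelial and enteric nerve markers gave no call (3 and 1 of 8 each at an unadjusted p under 0.05).

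Hspa1b, an inducible form of HSP70, read 10.56, 10.64, 10.43 and 10.74 in the controls, 8.36, 8.62, 8.81 and 8.80 in the T cell mice given vehicle, and 9.14, 9.13, 8.75, 9.01 and 9.26 in the treated mice. Hspa1b fell by 1.53 ± 0.29 (2.89-fold, adjusted p = 0.00821), beside -1.95 under vehicle. In marrow-only mice given ICA, Hspa1b differed from the controls by -0.86 (adjusted p = 0.603). Against those mice it did not pass in the treated mice (-0.67, adjusted p = 0.199). Hsph1, a co-chaperone of HSP70 (chosen after its values were seen), fell by 1.05 ± 0.19 (adjusted p = 0.00767), beside -1.62 under vehicle. Of 13 genes of the endoplasmic reticulum 2 fell, Dnajb9 and Xbp1, and the median was -0.21 (-0.27 under vehicle, with 3 falls). The count was 1 without control mouse 1, 2 or 4 or treated mouse 2 or 3, where Xbp1 was lost. Dnajb9, a chaperone induced by Xbp1 signalling, fell by 0.59 ± 0.09 (adjusted p = 0.00315) with no overlap. Marveld3, a tight junction protein and the only 1 of 13 junction genes that passed, fell by 0.47 ± 0.08 (adjusted p = 0.00628), and Prom1, a membrane protein of crypt cells, by 0.66 ± 0.11 (adjusted p = 0.00415), the only 1 of 10 stem cell list members. Hspa1b, Hsph1, Dnajb9, Marveld3 and Prom1 passed without any 1 mouse. Lgr5, the defining stem cell receptor, differed by -0.34 ± 0.12 (adjusted p = 0.176, 0.0298 without treated mouse 1).

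Genes of the type I interferon response, which mark tissue exposed to interferon alpha or beta, gave no call in limma: 0 of 23 measured members passed. An unadjusted p under 0.05 was reached by 19 of them, against 2908 of 22180 over all genes. All 23 differences were above 0, from 0.15 to 1.10 with a median of 0.67, but the treated mice were wholly above the controls for none. Isg15, a ubiquitin-like modifier, read 7.22, 6.70, 8.08 and 6.77 in the controls, 6.27, 6.96, 7.04 and 6.94 in the T cell mice given vehicle, and 7.47, 7.36, 7.87, 8.15 and 8.45 in the treated mice. The high control was mouse 3, and without it the 5 treated mice lay above the other controls. The difference was 0.67 ± 0.27 (adjusted p = 0.28). Xaf1, an apoptosis factor and the member with the smallest p, differed by 0.68 ± 0.18 (adjusted p = 0.0637). Under vehicle the list median was -0.23, with 3 of 23 above 0 and no call. Between the T cell groups it was 0.83, with 23 of 23 above 0 and also no call (Mx2, an antiviral GTPase, at 1.35, adjusted p = 0.125). In marrow-only mice given ICA the list median against the controls was 0.10, with 17 of 23 above 0 and no call. Between the treated mice and those mice it was 0.56, with 22 of 23 above 0 and 2 rises. The mean of the 23 genes was 9.12, 8.64, 9.81 and 8.85 in control mice 1 to 4 and 9.57, 9.25, 9.72, 9.84 and 10.24 in treated mice 1 to 5, so that control mouse 3 stood above 3 of the treated mice. Without control mouse 3, 9 members passed, Xaf1 among them at 0.87 (adjusted p = 0.0129), without treated mouse 1 it was 1, and without any other single mouse none. Array weights gave 9, and leaving out control mouse 3, treated mouse 1 and 1 mouse with marrow and ICA gave 17.

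**Figure D3:**
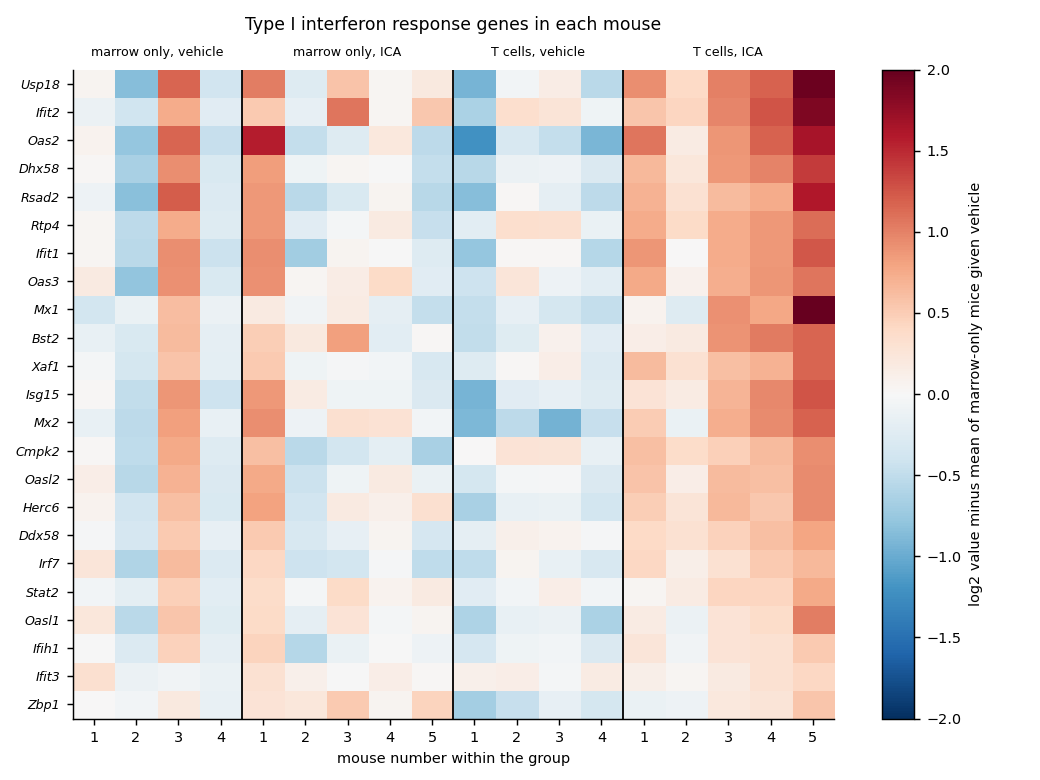
Rows are the 23 measured type I interferon response genes and columns the 18 mice by group, and the colour gives the log2 level minus the mean of the 4 control mice (marrow only, vehicle), red above and blue below it. Treated mouse 5 and control mouse 3 carry the deepest red of their groups, with means over the 23 genes of 10.24 and 9.81, and the T cell mice given vehicle are pale or blue, with means of 8.58 to 9.06.

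Targets of the aryl hydrocarbon receptor, the receptor that ICA is known to bind, gave 0 calls of 9 in limma, with a median of 0.10 (0.05 under vehicle). An unadjusted p under 0.05 was reached by 4 of the 9, against 2908 of 22180 over all genes. Cyp1a1, the classical target, read 6.05, 6.21, 6.07 and 5.77 in the controls, 5.71, 5.90, 5.69 and 6.00 in the T cell mice given vehicle, and 6.30, 6.25, 6.16, 6.36 and 6.33 in the treated mice. Treated mouse 3 lay below control mouse 2, and the other treated mice lay above all controls. The difference was 0.25 ± 0.11 (adjusted p = 0.304), and that between the T cell groups 0.45 (95% interval 0.22 to 0.68, adjusted p = 0.265). Nfe2l2, the oxidant sensor NRF2, differed by 0.22 ± 0.07 (adjusted p = 0.143), and passed without treated mouse 1 (0.0443), where 2 of the 9 passed.

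Among circadian clock genes, Ciart and Per3 differed between the treated mice and the T cell mice given vehicle, and both were nearer to the controls in the treated mice. In the clock, CLOCK and ARNTL drive genes with an E-box in their promoter, among them Per, Cry, Dbp, Tef and Ciart, and the products of Per and Cry repress this drive. DBP, TEF and HLF in turn act through the D-box. The labels give no hour of tissue collection, so that whether groups were sampled at the same hour was not tested. The windows of 300 bases around the start of the genes that the results turn on are shown, from RefSeq on GRCm38.p6, 5′ to 3′ on the strand of the gene, with capitals marking the E-box CACGTG or, in Per3, the D-box TTATGTAA. The windows lie at chr3:95882179-95882478 on the minus strand for Ciart, chr15:81802423-81802722 on the plus strand for Tef, chr7:45704997-45705296 on the plus strand for Dbp, chr4:151044616-151044915 on the minus strand for Per3 and chr10:85185005-85185304 on the minus strand for Cry1.
Ciart: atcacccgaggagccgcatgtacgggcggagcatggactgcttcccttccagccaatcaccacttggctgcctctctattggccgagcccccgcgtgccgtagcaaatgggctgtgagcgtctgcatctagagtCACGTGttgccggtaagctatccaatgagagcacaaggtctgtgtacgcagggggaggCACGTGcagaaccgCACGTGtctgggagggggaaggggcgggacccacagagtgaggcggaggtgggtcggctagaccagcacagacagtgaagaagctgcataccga
Tef: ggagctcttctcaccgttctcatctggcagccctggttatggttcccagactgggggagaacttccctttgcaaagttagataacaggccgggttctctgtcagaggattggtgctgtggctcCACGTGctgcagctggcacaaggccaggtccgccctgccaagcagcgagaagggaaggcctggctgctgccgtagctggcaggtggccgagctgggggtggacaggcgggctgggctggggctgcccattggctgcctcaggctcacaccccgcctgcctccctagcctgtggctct
Dbp: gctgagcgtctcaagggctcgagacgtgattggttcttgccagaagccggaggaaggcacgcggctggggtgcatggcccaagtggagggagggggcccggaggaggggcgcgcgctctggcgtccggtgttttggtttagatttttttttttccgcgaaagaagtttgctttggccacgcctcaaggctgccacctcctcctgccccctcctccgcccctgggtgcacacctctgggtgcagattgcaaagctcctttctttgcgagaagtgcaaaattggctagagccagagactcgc
Per3: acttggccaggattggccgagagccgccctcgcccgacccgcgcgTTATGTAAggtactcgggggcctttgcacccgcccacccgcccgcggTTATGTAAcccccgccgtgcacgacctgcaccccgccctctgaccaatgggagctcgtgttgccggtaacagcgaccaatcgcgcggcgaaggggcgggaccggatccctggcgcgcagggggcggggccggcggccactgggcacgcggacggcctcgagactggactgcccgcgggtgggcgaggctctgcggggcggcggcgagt
Cry1: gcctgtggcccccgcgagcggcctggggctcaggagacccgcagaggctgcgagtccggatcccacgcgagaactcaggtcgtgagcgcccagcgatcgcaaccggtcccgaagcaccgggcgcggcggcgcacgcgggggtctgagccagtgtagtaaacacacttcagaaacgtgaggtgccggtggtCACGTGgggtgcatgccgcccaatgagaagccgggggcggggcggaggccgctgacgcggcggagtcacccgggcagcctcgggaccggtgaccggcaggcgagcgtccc

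Ciart holds 3 E-boxes, at 116, 58 and 44 bases before the start, Tef 1 at 127 and Cry1 1 at 60, and Per3 holds 2 D-boxes at 205 and 158. The Dbp window holds neither motif. Both strands were searched, the E-box reads the same on each, and the motifs shown do not overlap each other. Over all 32851 RefSeq windows of this length, 2349 hold an E-box (7.15%) and 308 a D-box (0.938%). Of 15 listed clock genes with a window, 5 hold an E-box in at least 1 window, 1 holds a D-box and 9 hold neither. A match is a run of letters and says nothing of binding in these mice.

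Ciart, a repressor of CLOCK and ARNTL, read 6.51, 6.69, 6.75 and 6.21 in the controls, 7.92, 8.21, 7.72 and 8.06 in the T cell mice given vehicle, and 6.90, 7.06, 7.10, 7.14 and 7.41 in the treated mice. The 3 groups did not overlap, and the treated mice lay between the others. Against the controls the rise was 0.58 ± 0.12 (adjusted p = 0.015, up to 0.0732 without control mouse 1 or 4), against 1.44 under vehicle (adjusted p = 7.88e-06), and between the T cell groups it was -0.85 (adjusted p = 0.00788). Per3, a period gene, read 7.08, 6.86, 7.24 and 6.80 in the controls, 8.08, 8.43, 8.15 and 8.26 under vehicle, and 7.08, 7.56, 7.18, 7.44 and 7.38 in the treated mice. It did not pass against the controls (0.33 ± 0.11, adjusted p = 0.139, 0.0475 without treated mouse 1), where under vehicle it rose by 1.24 (adjusted p = 1.05e-05), and the T cell groups differed by -0.91 (adjusted p = 0.00155). Without 1 mouse, the 3 calls between the T cell groups became 1 to 9. Whether Ciart and Per3 kept theirs in each case was not tested.

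In all 3 of 10 measured late-day clock genes rose against the controls and none fell, with a median of 0.32, beside 7 rises and a median of 0.86 under vehicle. In marrow-only mice given ICA their median was -0.21, with 2 of 10 above 0 and 1 fall, that of Nr1d1. Dbp rose by 0.60 ± 0.14 (adjusted p = 0.0344), beside 1.33 under vehicle, and Tef by 0.53 ± 0.11 (adjusted p = 0.015), beside 0.87 under vehicle. Of 5 dawn genes, Cry1 fell by 0.40 ± 0.10 (adjusted p = 0.0404), beside -0.29 under vehicle. Arntl, the partner of CLOCK, did not pass at -0.25 ± 0.12 (adjusted p = 0.4), with treated values of 8.79 to 9.28 and control values of 9.24 to 9.44. Under vehicle it fell by 0.96 (adjusted p = 0.00072), and the T cell groups differed by 0.71 (adjusted p = 0.0623). Tef missed the threshold without control mouse 2 or 4, Dbp without control mouse 1, 2 or 4 or any of treated mice 2 to 5, and Cry1 without any 1 mouse other than control mouse 3 (up to 0.0732, 0.136 and 0.133). The late-day count was 4 without control mouse 3 or treated mouse 1, 2 without 1 of treated mice 2 to 5, 1 without control mouse 1 or 2, and 0 without control mouse 4.

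**Figure D4:**
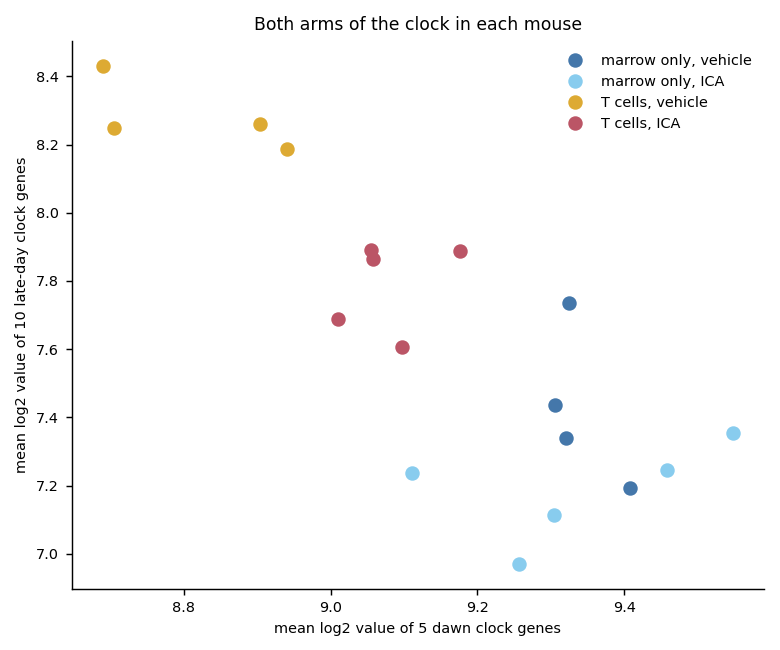
Each point is 1 of the 18 mice, with the mean log2 level of 5 dawn clock genes on the horizontal axis and that of 10 late-day clock genes on the vertical axis, coloured by group. For the dawn genes the treated mice (9.01 to 9.18) lie between the controls (9.31 to 9.41) and the T cell mice given vehicle (8.69 to 8.94), and for the late-day genes the treated mice (7.61 to 7.89) overlap the controls (7.19 to 7.74) and lie below the T cell mice given vehicle (8.19 to 8.43).

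Some genes that passed under vehicle did not pass in the treated mice. Mcpt1 and Mcpt2 encode the chymases of mucosal mast cells. Mcpt1 read 7.90, 7.87, 7.35 and 7.58 in the controls, 4.65, 4.68, 6.24 and 5.35 in the T cell mice given vehicle, and 5.92, 7.80, 7.59, 7.46 and 7.71 in the treated mice. Treated mice 2 to 5 lay among the controls, and treated mouse 1 below the highest mouse given vehicle. The difference from the controls was -0.38 ± 0.45 (95% interval -1.31 to 0.55, adjusted p = 0.808), and -0.04 without treated mouse 1, where under vehicle it was -2.44 (adjusted p = 0.0127). Between the T cell groups it was 2.06 (95% interval 1.13 to 2.99), which did not pass over all genes (adjusted p = 0.204). Mcpt2 gave -0.52 ± 0.50 (adjusted p = 0.75), -2.41 (adjusted p = 0.0244) and 1.89 (adjusted p = 0.339) in the same order. None of 12 mast cell markers passed in limma (1 at an unadjusted p under 0.05), and the receptor gene Kit differed by -0.01 ± 0.13.

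Retnlg, a resistin-like protein of neutrophils, differed by 1.14 ± 0.37 (adjusted p = 0.128) where under vehicle it rose by 2.20 (adjusted p = 0.00565). Its treated values of 5.91, 7.71, 5.57, 6.79 and 7.68 spread from the control range to the range under vehicle, it passed without treated mouse 1 or 3 (down to 0.0478), and the T cell groups differed by -1.06 (adjusted p = 0.524). Insig1, a brake on cholesterol synthesis, differed by 0.26 ± 0.14 (adjusted p = 0.474), beside 0.73 under vehicle (adjusted p = 0.0155) and -0.47 between the T cell groups (adjusted p = 0.41). For Mcpt1, Mcpt2, Retnlg, Insig1 and Reg3a the difference between the T cell groups thus did not pass, so that passing in 1 comparison and not in the other does not show that ICA changed them.

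Other lists gave no call. With 1.77% of all genes called, no call among so few members does not show that a list was unchanged. Goblet cell markers gave 0 of 10 (1 at an unadjusted p under 0.05), with the mucin gene Muc2 at -0.06 ± 0.05 and Fcgbp, a mucus protein, at -0.36 ± 0.10 (adjusted p = 0.062, passing without control mouse 3 or treated mouse 1, down to 0.0279). The goblet cell median was -0.09, with 1 of 10 differences above 0. Tuft cell, enteroendocrine and neutrophil markers gave 0 of 7, 0 of 12 and 0 of 10 (0, 3 and 2 at an unadjusted p under 0.05). Their medians were 0.19, -0.21 and 0.14, with 7 of 7, 2 of 12 and 6 of 10 differences above 0. Cell cycle genes gave 0 of 15 with a median of 0.01 and 0 at an unadjusted p under 0.05, and p53 targets, which answer irradiation, gave 0 of 10 (3 unadjusted). Adipocyte and pancreatic acinar markers, signs of fat or pancreas carried along with the gut, gave 0 of 5 and 0 of 4 (0 unadjusted in each), with medians of 0.29 and -0.12. The 1 measured red cell marker, Slc4a1, differed by 0.09 ± 0.13. Genes of the ATF4 stress response gave 0 of 11 (2 unadjusted), with asparagine synthetase, Asns, at -0.41 ± 0.11 (adjusted p = 0.0634).

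**Figure D5:**
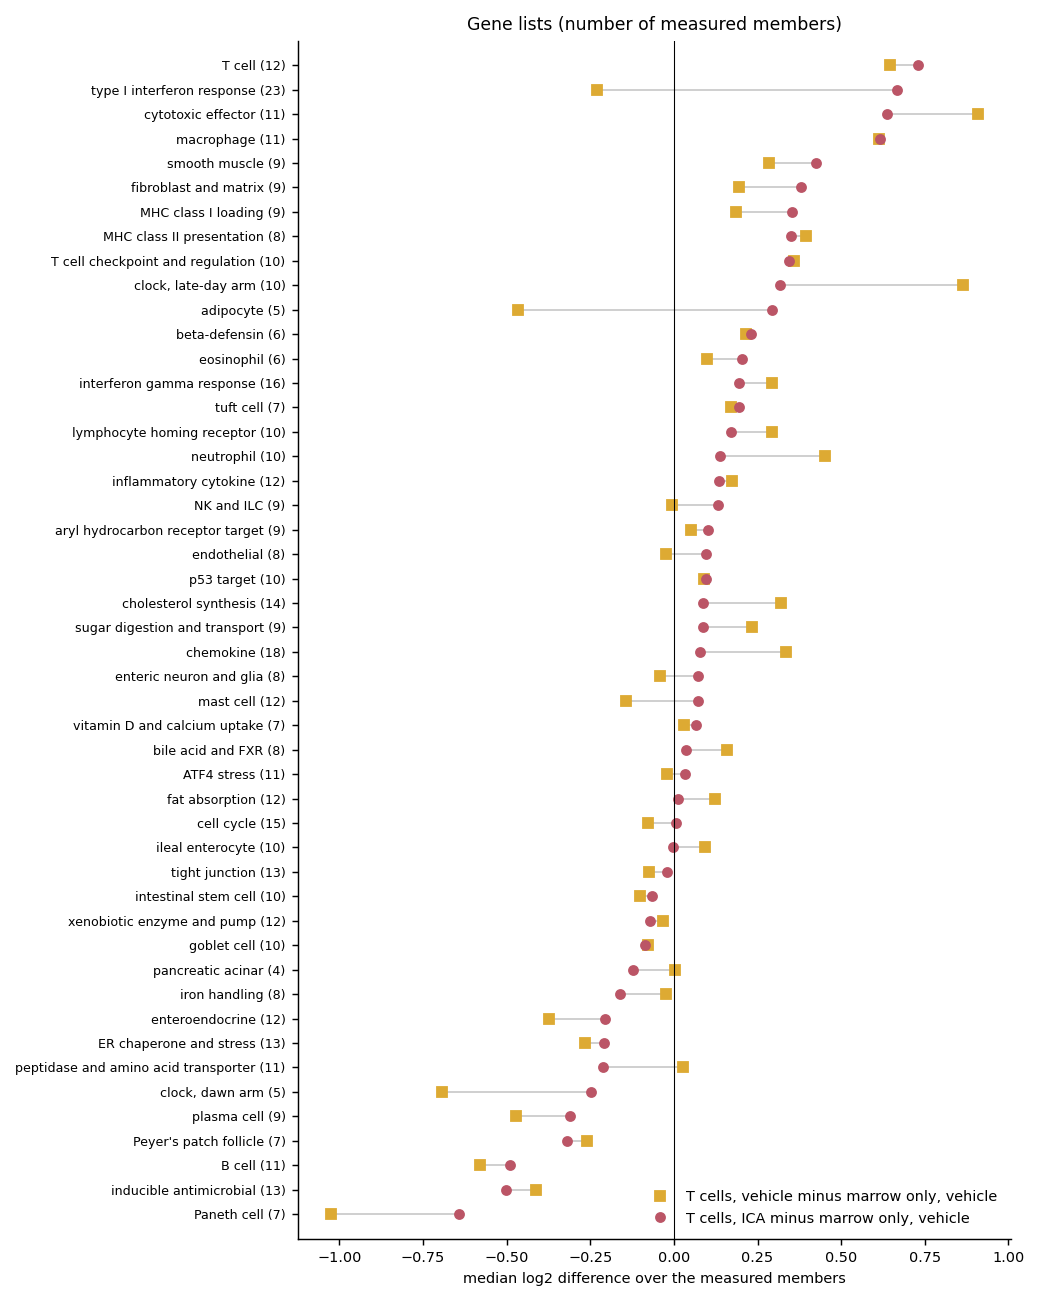
For each gene list the points give the median log2 difference from the 4 control mice of the 5 treated mice and of the 4 T cell mice given vehicle, which share those controls, with the number of measured genes beside the list's name. The T cell list (0.73 and 0.65) lies on the right and the Paneth list (-0.64 and -1.03) on the left for both, and the type I interferon list lies at 0.67 in the treated mice and at -0.23 under vehicle.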

How the data were processed

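RNA of the ileum of each mouse (250 ng) was labelled with biotin and read on Affymetrix whole-transcript arrays, per the labels' protocols. The deposited log2 values are RMA expression values of the authors. Partek, GenomeStudio and RMA are named in the submitters' processing notes, without versions, and that the log is to base 2 was inferred from the values. No further normalisation was applied. Of 41345 probe sets, 23521 carried 1 gene symbol, 1814 several and 16010 none. For each gene the single-symbol probe set with the highest mean over 18 arrays was kept, which left 22180 genes. Which sequence each probe set reads was not analysed here.

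A model with 4 groups was fitted to the 18 arrays in limma 3.58.1 (R 4.3.3), with a trend in the prior variance, and p-values were adjusted over all 22180 genes by the Benjamini-Hochberg method. All adjusted p-values in the text are from limma, and a gene is called where it is under 0.05. The number of arrays limits the precision. In a test on simulated data of 22180 genes with 200 changed, 60% of changes of 0.5 and 97% of changes of 1 (log2) were called, with 8 false calls. The simulated noise was normal, independent between genes and of the same spread in every mouse. In the real arrays the spread differed between mice, so that these figures need not hold for them.

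The genes and the 49 gene lists (545 entries, 490 measured, 1 of them through a RefSeq synonym) were chosen with earlier results of these data known. Named were the 12 called genes with the largest rise and the 12 with the largest fall, from each list up to 3 called members by smallest p or, in a list with none called, its member of smallest p, and a fixed set (S100g, Cd8a, Cd8b1, Ccl5, Igkj1, Mcpt1, Mcpt2, Retnlg, Defb39, Per3, Ciart, Arntl, Isg15, Mx2, Cyp1a1, Lyz1, Mmp7, Reg3a, Insig1, Cd79a, Lgr5, Muc2, Gzmb). Other genes, among them list members given for contrast that did not pass, were chosen after their values were seen. Alternatives were array weights, leaving out arrays, filters on low values, other normalisations, other variance models, the mean of probe sets and a replicate block.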

Additional observations from a re-analysis of the deposited data

Results flagged for a closer look

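Within a group, 24 of 362 sets of values held 1 mouse whose gap to the others passed Dixon's critical value (18 genes and 6 list means), where chance flags about 1 in 20. Of these, 10 were treated mouse 1, 9 control mouse 3, 2 treated mouse 3, 2 control mouse 1 and 1 control mouse 4.

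Control mouse 3 was low for Cd8a at 6.33 (other controls 6.78 to 6.85), Prss27 at 8.18 (9.01 to 9.14), Ceacam10 at 7.19 (8.35 to 8.53) and Pla2g2a at 10.71 (10.98 to 11.01). It was also low for Fcgbp at 12.34 (12.62 to 12.67), Il18 at 7.83 (8.80 to 8.99), C1qc at 7.71 (7.96 to 7.98) and the mean of the Peyer's patch markers at 7.08 (7.32 to 7.34). It was high for the mean of the adipocyte markers at 8.42 (7.66 to 7.71).

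Treated mouse 1 was low for Cd3g at 8.91 (other treated mice 9.65 to 9.92), Mrc1 at 7.86 (8.61 to 8.84), Fasl at 6.33 (6.66 to 6.70) and Folr2 at 7.26 (8.19 to 8.41). The mast cell chymases Mcpt1 at 5.92 (7.46 to 7.80) and Mcpt2 at 5.40 (7.45 to 7.93) were low in the same mouse, with the mean of the mast cell markers at 5.63 (5.93 to 6.01) and that of the cell cycle genes at 8.87 (9.28 to 9.37). It was high for Zc3h12a at 8.64 (8.39 to 8.44) and for the mean of the B cell markers at 6.07 (5.81 to 5.88).

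Control mouse 1 was low for Myh11 at 10.71 (10.94 to 10.97) and for the mean of the smooth muscle markers at 9.92 (10.10 to 10.11). Treated mouse 3 was low for Ret at 7.25 (7.51 to 7.62) and high for H2-Aa at 10.75 (10.43 to 10.49), and control mouse 4 was high for Il22ra2 at 5.89 (5.68 to 5.70). The causes were not tested.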

How the results depend on the processing

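Against 392 called genes (193 higher, 199 lower, 52 at least 2-fold), array weights gave 1093 (648, 445 and 91), and leaving out 3 arrays (control mouse 3, treated mouse 1 and mouse 1 with marrow and ICA, chosen with earlier results of these data known) gave 993 (636, 357 and 127), and the cause was not tested. A robust prior variance left 34 genes at 2-fold. Leaving out 1 mouse at a time gave 136 to 828 called genes, 77 to 539 higher, 57 to 289 lower and 31 to 94 at least 2-fold, with 57 to 130 lower where the count moved by over 1.5 times. For the T cell mice given vehicle the 327 calls became 1074 with weights, 664 without the 3 arrays, 824 with only the 2 groups compared and 94 to 326 without 1 mouse (94 to 167 where it moved by over 1.5 times), and the 3 calls between the T cell groups became 13, 39, 49 and 1 to 9. With only the 2 groups compared, 535 genes were called, 343 of them among the 392. Higher genes made up 49.2% of the calls, 56.8% of 465 after quantile normalisation (370 shared), 59.3% with weights, 64% without the 3 arrays and 65.1% without treated mouse 1. Median centring, filters on low values, the mean of probe sets and no variance trend kept the count within 1.5 times, at 376, 458 and 479, 386 and 293. Of the 132 genes for which the settings were run, none changed sign where it passed in the main fit or in the setting. Changes of sign in genes that passed in neither were not counted, and other genes given with values were not rerun. Of 59 called genes named by the rule, 27 passed without any 1 of the 9 mice and 32 missed the threshold at least once.

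Of the 132 genes, 21 lost their call with a robust prior variance (Hp, Ccl8, Trav9d-3, Igkj1, the segment of Entrez gene 384419, Slc40a1, Ceacam10, B3gnt7, Mmp7, Pla2g2a, Reg3b, Slc6a18, Dmbt1, Chst4, Ighg3, Igkv8-19, Socs3, C1qc, Phf11b, Cd3e and Nkg7) and 14 with no variance trend (Trav9d-3, the same segment, Actg2, Myh11, Cry1, Lag3, Socs3, Nfkbia, Card9, C1qc, Phf11b, Ifitm3, Cd3e and Ccl28). The mean of probe sets cost 5 (Trav9d-3, Mmp7, Tef, Ighg3 and Sp100), only the 2 groups compared 2 (Cry1 and Dbp), quantile normalisation 2 (Nfkbia and Ccl28), median centring 2 (Nfkbia and Card9) and leaving out the 3 arrays 1 (Igkj1). Array weights and both filters cost none of those tested. Calls were gained by 12 genes without the 3 arrays, 10 with weights and at most 6 in any other setting. Of the list counts, 22 moved by over 1.5 times with weights and 18 without the 3 arrays, all upwards (T cell 4 to 8 and 7, plasma cell 1 to 4 in both, homing receptors 0 to 4 and 5, late-day clock 3 to 5 and 6), and 12 with only the 2 groups compared, 11 of them upwards (B cell 1 to 4). Downward moves were Paneth 2 to 0 and iron 1 to 0 with the robust prior, Paneth 2 to 1 with the mean of probe sets, smooth muscle 4 to 1 and dawn clock 1 to 0 without a trend, dawn clock 1 to 0 with only the 2 groups, and, where genes were filtered, checkpoint 3 to 1 and natural killer and innate lymphoid 2 to 1.

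Groups share replicate numbers. Between treated and control mice of the same number, deviations from group means correlated by -0.08, -0.02, 0.01 and -0.10. With a single pair of arrays per number and the other groups left out, these values cannot settle whether the numbers pair the mice. With the number as a replicate block, 364 genes were called (179 higher, 185 lower, 53 at least 2-fold), 299 of them among the 392, with 382 in the T cell mice given vehicle and 4 between the T cell groups. Myh11, Dbp, Abcg2, Igkv8-19, Nfkbia, Card9 and Ccl28 missed the threshold under the block, and Fcgbp, Tap2, Cxcr6 and Asns passed.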

Other observations

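Genes outside the lists, chosen after their values were seen, also passed, with groups that did not overlap. Il22ra2, the soluble protein that binds and blocks IL-22, read 5.70, 5.70, 5.68 and 5.89 in control mice 1 to 4, and 4.73, 4.58, 4.80, 4.80 and 4.69 in treated mice 1 to 5. It fell by 1.02 ± 0.14 (SE, adjusted p = 0.00171), beside -1.06 in the T cell mice given vehicle. Its treated mean of 4.72 lies at the low end of the array, and no detection call was used. Il17re, a subunit of the receptor for IL-17C on epithelium, fell by 0.58 ± 0.12 (adjusted p = 0.0184), and missed the threshold without control mouse 2 or 4 or treated mouse 2 (up to 0.0819). Tifa, an adaptor of the response to bacterial sugar, read 8.74, 8.96, 8.52 and 8.88 in the controls and 8.11, 7.44, 7.78, 8.05 and 7.74 in the treated mice, and fell by 0.95 ± 0.12 (adjusted p = 0.00053). Nfkbiz, a nuclear regulator of NF-kappa-B targets, fell by 0.68 ± 0.11 (adjusted p = 0.00365), and Zc3h12a, an RNase that degrades inflammatory transcripts, by 0.73 ± 0.12 (adjusted p = 0.00392). Lrrc1, a scaffold protein of cell polarity, fell by 0.79 ± 0.10 (adjusted p = 0.000599). All of these except Il17re passed without any 1 mouse.

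Socs3, an inhibitor of STAT3 signalling, fell by 0.88 ± 0.22 (adjusted p = 0.0432) with control mouse 3 inside the treated range, and Nfkbia, the inhibitor of NF-kappa-B, by 0.32 ± 0.08 (adjusted p = 0.0431). Bcl3 fell by 0.54 ± 0.13 (adjusted p = 0.0326) and Card9, an adaptor of fungal recognition, by 0.50 ± 0.13 (adjusted p = 0.0497). Socs3 missed the threshold without any 1 mouse other than control mouse 3, Nfkbia and Card9 without control mouse 1, 2 or 4 or any of treated mice 2 to 5, and Bcl3 without control mouse 1, 2 or 4 or treated mouse 3 or 4 (up to 0.164, 0.166, 0.195 and 0.11).

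As with the other genes of this section, those given next were chosen after their values were seen. Sp110, Ifitm3, Sp100 and Phf11b lie outside the type I interferon list, of which 0 of 23 measured members passed. Sp110, a nuclear body protein that interferons induce, read 8.32, 8.38, 8.41 and 8.26 in the controls, 8.48, 8.55, 8.97 and 8.75 in the T cell mice given vehicle, and 8.83, 8.66, 9.25, 9.26 and 9.40 in the treated mice. It rose by 0.74 ± 0.14 (adjusted p = 0.0096) and passed without any 1 mouse. Ifitm3, which blocks virus entry, rose by 0.50 ± 0.12 (adjusted p = 0.0329), Sp100 by 0.59 ± 0.13 (adjusted p = 0.0248) and Phf11b by 0.76 ± 0.19 (adjusted p = 0.0481). Each missed the threshold without control mouse 1, 2 or 4, Ifitm3 also without treated mouse 2, 3 or 5, Sp100 without treated mouse 3, 4 or 5 and Phf11b without control mouse 3 or any of treated mice 2 to 5 (up to 0.118, 0.105 and 0.147). The metallothioneins Mt1 and Mt2, which bind zinc, rose by 0.46 ± 0.10 and 0.70 ± 0.15 (adjusted p = 0.0181 and 0.0172), beside 0.49 and 0.75 under vehicle, and missed it without control mouse 1, 2 or 4, Mt1 also without treated mouse 5 (up to 0.0592 and 0.0775).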
